A study of Mus musculus with 5 samples.

Results

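The 10 genes described here encode the transcription factor NRF2 and its repressor, enzymes that make and recycle glutathione, the cystine importer, reductases of the thioredoxin system, and a protecting and a sensitising enzyme of ferroptosis. They were taken by symbol (Nfe2l2, Keap1, Gclc, Gclm, Gsr, Slc7a11, Txnrd1, Srxn1, Gpx4 and Acsl4), and all 10 were found among the 32285 genes counted in each library. Kidney cells of male wild-type C57BL/6 mice were sequenced in droplets with a 3′ kit that counts transcripts by unique molecular identifiers (UMIs). The mice were 8 to 10 weeks old. The AKI group (2 libraries, week 2) received aristolochic acid I (AAI), a plant toxin taken up by the proximal tubule, at 3 mg/kg into the peritoneum every 3 days over the first 2 weeks. The CKD group (2 libraries, week 4) had the same course followed by 2 weeks without AAI, and the control (1 library, week 0) received vehicle. The study calls the control a baseline harvest, while its methods give vehicle on the AAI schedule. If taken at baseline, the control also differed from AKI in time, which cannot be told apart from AAI. No transgene or deletion is named for any group, and the labels do not say how many mice went into a library, so p-values measure only the spread between these libraries.

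NRF2 is made constantly and destroyed constantly. KEAP1 holds it in the cytosol and hands it to a ubiquitin ligase, and oxidants or electrophiles that modify KEAP1 let NRF2 reach the nucleus, where with small MAF proteins it binds antioxidant response elements. Because this switch acts on the protein, the amount of Nfe2l2 mRNA does not measure NRF2 activity. Its targets supply glutathione and reduced thioredoxin. Ferroptosis is a form of cell death through peroxidation of membrane lipids, which kidney tubule cells are known to undergo in acute injury. GPX4 reduces lipid peroxides with glutathione, while ACSL4 loads membranes with the polyunsaturated fatty acids that are oxidised.

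After filters 53718 cells remained, between 8783 and 16330 in the AKI and CKD libraries together with 8496 in the control, with a median of 2819 to 5605 UMIs a cell. They formed 46 clusters, grouped by marker genes into classes that are called "X-like" because no annotation of the authors was used. The 10 genes and the related lists below were left out of the clustering. A cluster led by Ctsk, Mmp9 and Acp5, with macrophage markers detected, was left unnamed. It is not part of the macrophage-like class and is described at the end. Of the classes, 9 had at least 50 cells in every library and were tested: proximal tubule (PT), thick ascending limb (TAL), distal convoluted tubule (DCT), collecting duct intercalated (CD-IC), endothelial (EC), macrophage, dendritic (DC), natural killer (NK) and T lymphocyte. Levels are UMIs of the gene per 10000 UMIs of the class in a library, with exact Poisson 95% intervals that cover counting error only. The libraries were unequal. Barcodes with over 30% mitochondrial UMIs made up 38.7% in the control and 11.1% to 12.7% in the others, and 89 control cells shared their barcode with a CKD 2 cell of over 20 times their UMIs. The CKD 1 library had the shallowest macrophage-like cells, with a median of 2129 UMIs against 7886 in CKD 2. It was shallower than CKD 2 in every tested class but DCT-like cells (2275.5 against 2140). In TAL-like cells the medians were 3189 against 17186.5, in CD-IC-like cells 2384 against 22015 and in DC-like cells 3525 against 12852. In thin limb-like cells, which were not tested, they were 2539.5 against 21952.5.

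Differences were tested on UMIs summed per class and library with the quasi-likelihood test of edgeR, with p-values adjusted by the Benjamini-Hochberg method over all genes tested in a class. For AKI against control the fit held all 5 libraries, and the single control library was assumed to vary like the others. In that comparison 9 of 84 gene and class pairs passed an adjusted p of 0.05, all of them higher in AKI, and 34 passed an unadjusted 0.05. This was 10.7% of the pairs, against 6.86% of all gene and class pairs tested. The share of all genes called was 12.0% in PT-like, 8.53% in TAL-like, 17.2% in DCT-like, 0% in CD-IC-like, 8.36% in EC-like, 0% in Macrophage-like, 6.74% in DC-like, 1.98% in NK-like and 6.42% in T lymphocyte-like cells. The members called were 2 in PT-like cells, 1 in TAL-like, 3 in DCT-like and 3 in DC-like cells. For CKD against AKI, over 2 and 2 libraries, 0 of 82 pairs passed by edgeR, with 16 at an unadjusted p under 0.05 and 4 by DESeq2. There the share of all genes called was 1.15% in PT-like, 0.0182% in TAL-like, 1.96% in DCT-like, 0% in CD-IC-like, 0% in EC-like, 0.287% in Macrophage-like, 0.0401% in DC-like, 0.0550% in NK-like and 8.91% in T lymphocyte-like cells, and 1.70% over all of them. The calls rest on few libraries. Without AKI 1 only 1 pair passed for AKI against control, without AKI 2 it was 3, without CKD 1 it was 38 and without CKD 2 it was 35.

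**Figure D1:**
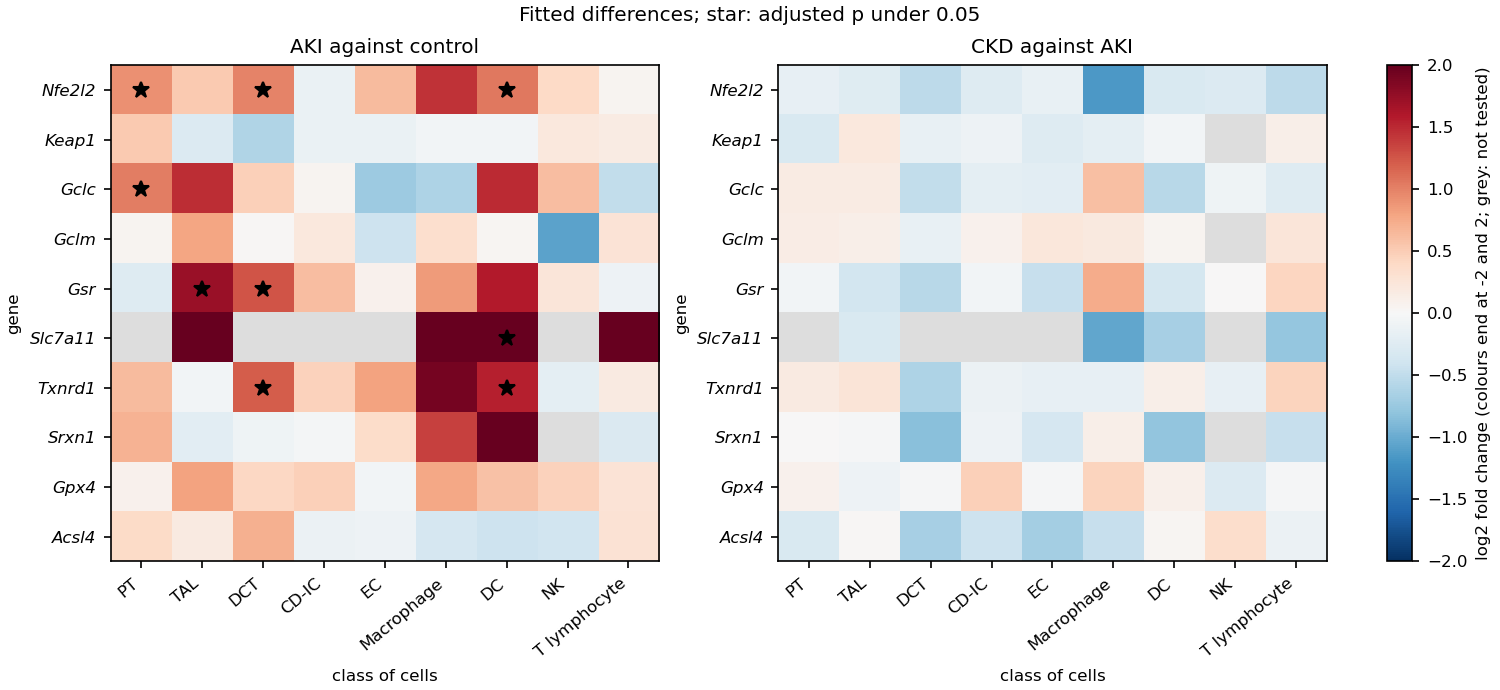
Fitted log2 fold changes of the 10 genes (rows) in the 9 tested classes (columns) for AKI against control (left) and CKD against AKI (right), with stars where the adjusted p was under 0.05 grey where a gene had too few UMIs to be tested, and colours ending at -2 and 2. The left panel holds 9 stars, in PT-like, TAL-like, DCT-like and DC-like cells, and the right panel holds 0.

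The short sequences below are shown because NRF2 reaches its targets through one motif. The core of the antioxidant response element, TGACNNNGC, was searched on both strands in the 300-base promoter windows of RefSeq (GRCm38.p6), which cover 250 bases before and 50 after a transcript start. It occurred in 4071 of 32851 windows, or 12.4%. Windows were present for 8 of the 10 genes, 13 in all, and 4 of them, from 4 genes, held the core. Each is printed 5′ to 3′ on the strand of its gene with the core in capitals; in Gclm, Txnrd1 and Srxn1 the core lies on the opposite strand, so the capitals show its complement. A match is a run of letters, not a site shown to be bound. The start meant is the transcript start of the window, which for Gclm and Txnrd1 is not the gene start given below.
Nfe2l2 (chr2:75704885-75704913, minus strand, core from 240 bases before the start): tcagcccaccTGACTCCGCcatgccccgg
Gclm (chr3:122245413-122245441, plus strand, core from 134 bases before the start): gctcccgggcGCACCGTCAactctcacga
Txnrd1 (chr10:82859104-82859132, plus strand, core from 92 bases before the start of 1 of its 3 windows): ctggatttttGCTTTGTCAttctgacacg
Srxn1 (chr2:152105542-152105570, plus strand, core from 28 bases after the start): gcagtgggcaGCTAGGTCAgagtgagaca

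Nfe2l2 (chromosome 2, 75675513 to 75704663 in GRCm38.p6), the gene of NRF2 itself, was higher in AKI than in control in 3 tested classes. In PT-like cells its level was 0.430 in the control, 0.889 and 0.826 in AKI and 0.708 and 0.750 in CKD. Both AKI libraries, and both CKD libraries, lay above the control. The log2 fold change for AKI against control was 0.92 ± 0.199 (SE; adjusted p = 0.0220, edgeR), and with the clusters built without correction by library it was 0.63 with an adjusted p of 0.118. The 3 clusters of the class held unequal shares of its UMIs: the one led by Miox and Akr1c21 held 37.6% in the control but 7.79% and 6.87% in AKI, and the one led by Spink1 44% in the control but 82.8% and 86.6% in AKI. In each cluster both AKI libraries were above the control: in the cluster led by Miox and Akr1c21 the level went from 0.307 to 0.539 and 0.786, in that led by Spink1 from 0.509 to 0.951 and 0.809, and in that led by Gm26917 from 0.493 to 0.639 and 1.10. The counting intervals of the control and AKI 1 overlapped in the Miox-led and Gm26917-led clusters.

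In DCT-like cells Nfe2l2 stood at 1.21 in the control, 2.59 and 2.53 in AKI, and 1.30 and 2.17 in CKD. The log2 fold change was 0.99 ± 0.266 for AKI against control (adjusted p = 0.0115, edgeR), and 0.102 was the adjusted p by DESeq2. Much of this class came from few cells, since its cluster led by Slc12a3 and Pvalb held 71.2% and 69% of the AKI UMIs in 40 and 36 cells. Nfe2l2 was 1.28 in the control and 3.19 and 3.02 in AKI in that cluster. In the cluster led by Slc12a3 and Abca13, with 201 and 132 AKI cells, it was 0.981 against 1.10 and 1.44. The counting intervals of these last values overlapped. In DC-like cells, antigen-presenting cells of the tissue, the level was 0.748 in the control, 1.36 and 1.39 in AKI and 1.21 and 1.14 in CKD (log2 fold change 1.06 ± 0.159, adjusted p = 0.0141, edgeR). All 4 AAI libraries were above the control in DCT-like and DC-like cells. For CKD 1 in DCT-like cells the gap was small, and its counting interval overlapped that of the control. In macrophage-like cells the values were 1.42 in the control, 3.53 and 3.45 in AKI, and 1.28 and 2.26 in CKD, with a log2 fold change of 1.44 for AKI against control (adjusted p = 0.179, edgeR) and -1.15 for CKD against AKI (adjusted p = 0.180). The AKI libraries were the highest there, but CKD 1 was below the control and neither difference passed the test. In T lymphocyte-like cells the level was among the lowest of all classes, 0.388 in the control, 0.391 and 0.376 in AKI and 0.302 and 0.232 in CKD. The CKD libraries lay below the AKI libraries, with a log2 fold change of -0.53 (adjusted p = 0.0581, edgeR), just short of the threshold.

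Over the classes with at least 20 cells, Nfe2l2 was highest in neutrophil-like cells, between 4.50 and 7.91 over 4 libraries, which was above every library of monocyte-like cells (2.55 to 4.15). PT-like cells (0.430 to 0.889) lay below every library of the other tubule classes, while NK-like (0.444 to 0.602) and T lymphocyte-like cells (0.232 to 0.391) had the lowest medians. Between these ends neighbouring classes mostly overlapped. The control had fewer than 20 neutrophil-like and monocyte-like cells, so it has no level in them. Monocyte-like cells also held macrophage markers, with a summed level of 40.0 and 49.7 in AKI and 136 and 71.8 in CKD. In CKD 1 this was above the 54.9 of macrophage-like cells.

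Keap1 (chromosome 9, 21229730 to 21239332), the NRF2 repressor, passed the test in no class and in neither comparison. In PT-like cells it stood at 0.212 in the control, 0.324 and 0.318 in AKI, and 0.245 and 0.255 in CKD. All AAI libraries were above the control, with an adjusted p of 0.152 for AKI against control (edgeR). In DCT-like cells the order was the opposite, with 0.442 in the control and 0.257 to 0.323 in the other 4 libraries (adjusted p = 0.175). EC-like cells had the highest median, between 0.472 and 0.703.

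**Figure D2:**
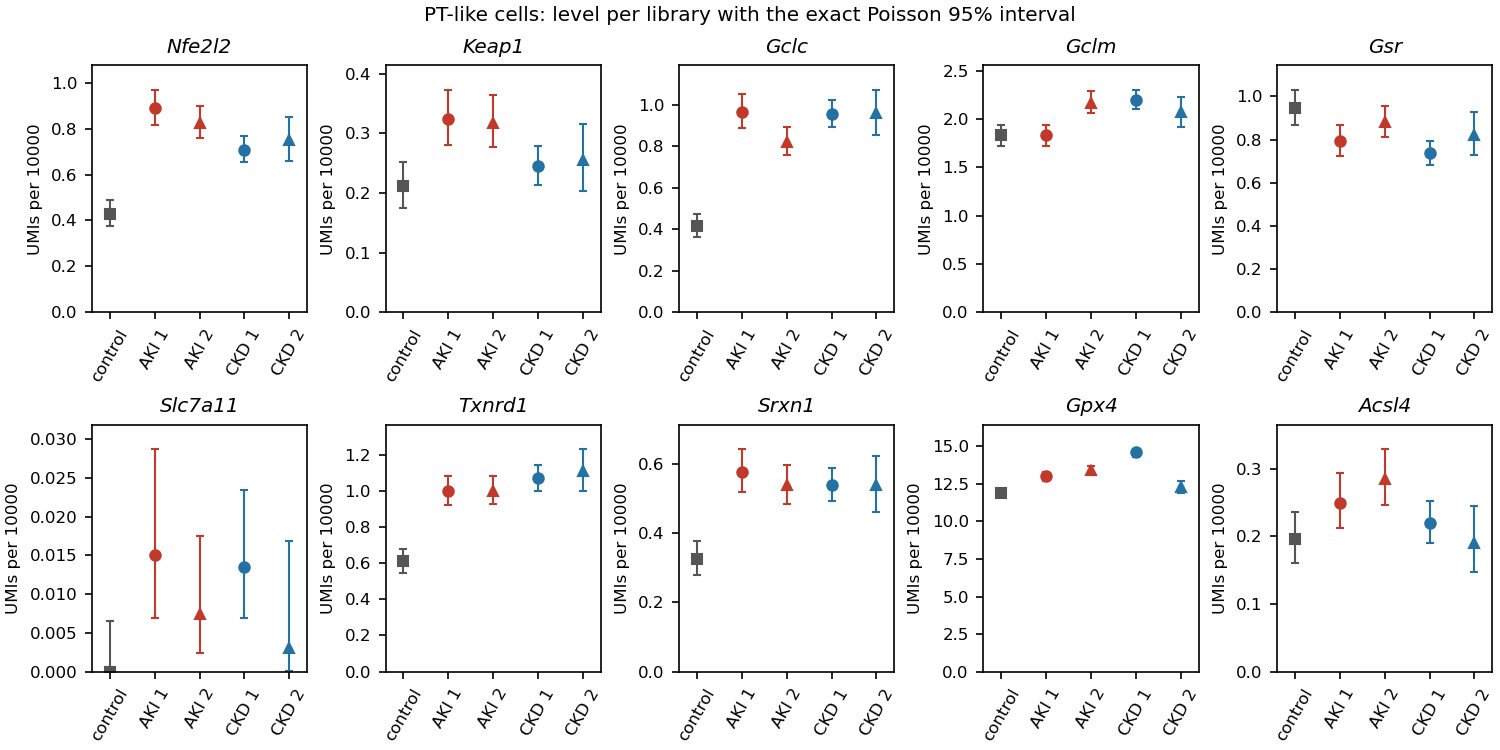
Levels of the 10 genes in PT-like cells, in UMIs per 10000 UMIs of the class, 1 point per library with its exact Poisson 95% interval (counting error only); squares are control, red AKI, blue CKD, circles library 1 and triangles library 2. Gclc was 0.416 in the control and between 0.822 and 0.963 in the other 4 libraries, whereas Gpx4 lay between 11.9 and 14.6 in all 5.

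Gclc (chromosome 9, 77754535 to 77794489), the catalytic subunit of glutamate-cysteine ligase and the rate-limiting step of glutathione synthesis, was the other member called in PT-like cells. Its level was 0.416 in the control, 0.963 and 0.822 in AKI, and 0.954 and 0.957 in CKD. The control stood apart below 4 libraries that lay close together, and the log2 fold change for AKI against control was 1.02 ± 0.210 (adjusted p = 0.0183, edgeR). It was higher in each PT-like cluster: 0.364 in the control against 0.668 and 0.895 in AKI in the Miox-led cluster, 0.420 against 0.963 and 0.772 in the Spink1-led cluster, and 0.512 against 1.21 and 1.40 in the Gm26917-led cluster. The counting intervals of the control and AKI 1 just overlapped in the Miox-led cluster. In TAL-like cells the values were 0.998 in the control, 2.19 and 3.69 in AKI, and 1.47 and 5.12 in CKD. All were above the control, but libraries of the same group differed so much that the adjusted p was 0.172 (edgeR).

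The direction was not shared by every class. In EC-like cells Gclc was 0.554 in the control, 0.358 and 0.291 in AKI and 0.313 and 0.240 in CKD, so the control was the highest library (log2 fold change -0.72, adjusted p = 0.0730, edgeR). The same order held in T lymphocyte-like cells, with 0.284 in the control and 0.144 to 0.199 in the others (adjusted p = 0.120). Control cells also held more tubule RNA than AKI cells of the same class. The summed level of the TAL markers was 9.29 in control EC-like cells against 1.40 and 1.30 in AKI, and 7.82 in control T lymphocyte-like cells against 1.98 and 1.15, and the part of this in the Gclc values was not tested. Free RNA was not removed from the counts. Gclc was highest in tubule classes, with medians of 2.82 in CD-IC-like, 2.22 in CNT-like (connecting tubule), 2.19 in TAL-like and 2.19 in DCT-like cells, whose ranges overlapped. In PT-like cells it reached at most 0.963, below every library of urothelial-like cells (1.22 to 2.07), the next class up.

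Whether AKI minus control differed between PT-like cells and each other tested class was tested in a model with the library as a block, over 78 gene and class pairs, of which 3 passed. The share of all genes called in these tests was 0% against CD-IC-like, 0.464% against DC-like, 2.43% against DCT-like, 2.35% against EC-like, 0% against Macrophage-like, 2.70% against NK-like, 0% against T lymphocyte-like and 1.33% against TAL-like cells. For Gclc the difference between PT-like and EC-like cells was 1.74 ± 0.284 on the log2 scale (SE; adjusted p = 0.0143, edgeR). Against T lymphocyte-like cells it was 1.38 with an adjusted p of 0.139.

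Gclm (chromosome 3, 122245487 to 122267215), the modifier subunit that raises the ligase's affinity and lowers its feedback inhibition, did not follow Gclc in PT-like cells. It stood at 1.83 in the control, 1.83 and 2.17 in AKI, and 2.20 and 2.07 in CKD (log2 fold change 0.05 ± 0.225, adjusted p = 0.906, edgeR). The control and AKI 1 could not be told apart. Gclm passed in no class. Its median was highest in thin limb-like cells, with 1.60 in the control, 4.31 and 5.10 in AKI and 1.86 and 5.46 in CKD, a class that was too small to be tested because CKD 2 held only 32 such cells. PT-like cells came next by median, between 1.83 and 2.20, above thin limb-like cells in the control and CKD 1 and above every library of podocyte-like cells (1.20 to 1.61).

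Gsr (chromosome 8, 33653238 to 33698162), glutathione reductase, returns oxidised glutathione to its reduced form. It was higher in AKI in TAL-like and DCT-like cells, and in CD-IC-like cells it did not pass (adjusted p = 0.663). In TAL-like cells its level was 0.353 in the control, 1.23 and 1.22 in AKI, and 0.659 and 1.24 in CKD (log2 fold change 1.72 ± 0.307, adjusted p = 0.0197, edgeR). In DCT-like cells the level was 0.230 in the control, 0.573 and 0.604 in AKI, and 0.308 and 0.474 in CKD (1.26 ± 0.301, adjusted p = 0.00495, edgeR). The counting intervals of the 2 AKI libraries overlapped in both classes, and CKD 1 lay nearest to the control. By DESeq2 the DCT-like difference had an adjusted p of 0.210, and with at most 15% mitochondrial UMIs it had 0.109. In the DCT-like cluster led by Slc12a3 and Pvalb Gsr was 0.231 in the control and 0.630 and 0.714 in AKI, over 40 and 36 AKI cells. In that led by Slc12a3 and Abca13 it was 0.224 against 0.433 and 0.361, and the counting intervals overlapped. In PT-like cells Gsr was 0.947 in the control, 0.794 and 0.880 in AKI, and 0.737 and 0.823 in CKD, so that the control was the highest library of the class (log2 fold change -0.26, adjusted p = 0.440). The clusters did not share this order: Gsr was 1.32 in the control and 1.01 and 0.960 in AKI in the Miox-led cluster, 0.881 against 0.817 and 0.908 in the Spink1-led cluster, and 0.338 against 0.408 and 0.437 in the Gm26917-led cluster. The part of the unequal cluster shares in the class value was not tested. AKI minus control in PT-like cells was lower than that in TAL-like cells by a log2 difference of -1.92 ± 0.315 (adjusted p = 0.0265, edgeR) and than that in DCT-like cells by -1.47 ± 0.340 (adjusted p = 0.0277).

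Gsr was highest in neutrophil-like cells, between 7.99 and 11.7 over 4 libraries, far above monocyte-like cells at 0.472 to 2.37. The 0.472 came from CKD 1, whose monocyte-like cells were the richest of this class in macrophage markers. Neutrophils use the reductase during their oxidative burst. In DC-like cells the control stood at 0.135, AKI at 0.277 and 0.432 and CKD at 0.325 and 0.275 (adjusted p = 0.0508, edgeR). In macrophage-like cells the order was control 0.114, AKI 0.189 and 0.186, and CKD 0.419 and 0.299, with an adjusted p of 0.193 for AKI against control and 0.181 for CKD against AKI. The summed macrophage markers of this class were 54.9 in CKD 1 against 124 in CKD 2, and its PT markers 6.18 against 0.679. Their part in the Gsr values was not tested. In T lymphocyte-like cells CKD (0.311 and 0.260) lay above AKI (0.213 and 0.209), with an adjusted p of 0.0561.

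**Figure D3:**
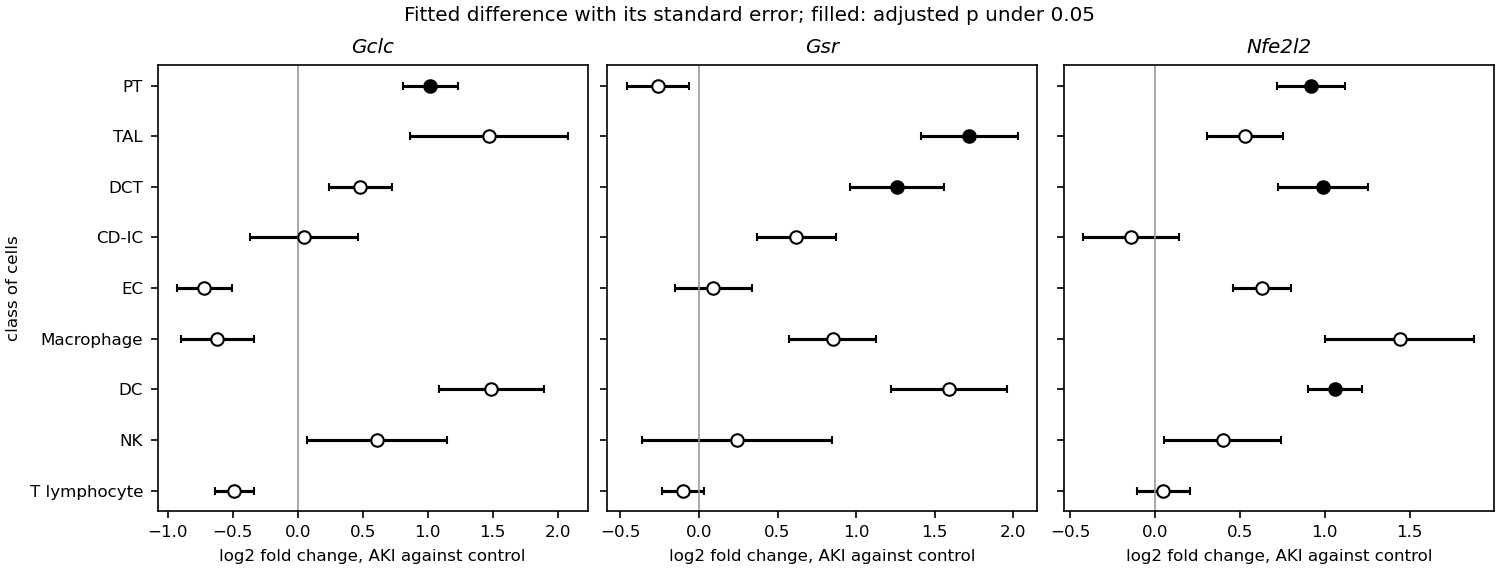
Log2 fold change of AKI against control for Gclc, Gsr and Nfe2l2 in the 9 tested classes, with the standard error of the fit as bars; filled points passed an adjusted p of 0.05. Gclc was 1.02 in PT-like and -0.72 in EC-like cells, and Gsr was 1.72 in TAL-like and -0.26 in PT-like cells.

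Slc7a11 (chromosome 3, 50364936 to 50499087), the cystine importer that supplies the cysteine for glutathione, had its highest medians in myeloid classes, followed by thin limb-like cells. Neutrophil-like cells held 20.4 and 33.1 in AKI and 16.7 and 18.5 in CKD, monocyte-like cells 1.30 and 1.11 in AKI and 0.693 and 0.548 in CKD. Thin limb-like cells, which were not tested, held 0.247 in the control, 0.142 and 0.0913 in AKI, and 0.121 and 0.918 in CKD. In the control they gave 48 of the 124 Slc7a11 UMIs of all cells and stood above macrophage-like and DC-like cells, and in CKD 2 they stood above monocyte-like cells. In DC-like cells the control had 1 UMI among 1403753 (level 0.00712, interval 1.8e-04 to 0.0397), whereas AKI stood at 0.448 and 0.687 and CKD at 0.418 and 0.353. The control thus lay below all 4 AAI libraries. The ratio of AKI to control was 82.9 with a counting interval of 14.8 to 3283, and the adjusted p was 0.00472 (edgeR). In macrophage-like cells the control stood at 0.0331 (9 UMIs), AKI at 0.573 and 0.446 and CKD at 0.156 and 0.388. This was again below the other libraries, yet the adjusted p was 0.123 in a class in which no gene passed.

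The level in DC-like cells was compared with markers of the class that is richest in the transcript. The summed level of the 7 neutrophil markers in DC-like cells was 0.0285 in the control, 0.0571 and 0.0691 in AKI and 0.325 and 0.139 in CKD, against 897 to 1123 in neutrophil-like cells. The summed macrophage markers in DC-like cells were 2.39 in the control and 5.01 and 7.67 in AKI, and DC markers were 7.86 in the control and 11.2 in AKI 1 and higher still in AKI 2; their part in the Slc7a11 difference was not tested. In the control DC-like cells numbered 150. In T lymphocyte-like cells the level was at most 0.00556, and in PT-like cells it was at most 0.0151. The control PT-like cells had 0 Slc7a11 UMIs of 5626138, which at 3 UMIs, the limit used for a count of 0, allows a level of up to 0.00533, and the control T lymphocyte-like cells 0 of 4618782, which allows 0.0065. The transcript was not detected at this depth in those control cells, while AKI gave 14 UMIs in PT-like and 28 in T lymphocyte-like cells.

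**Figure D4:**
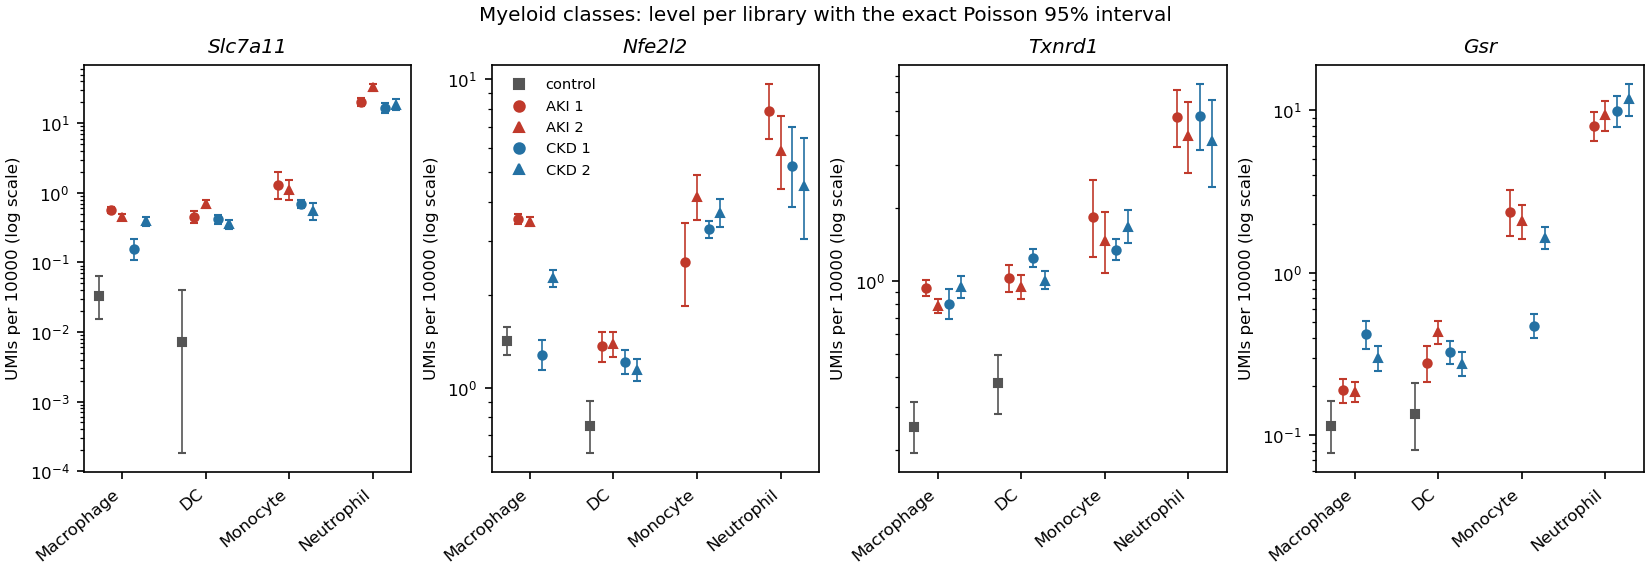
Levels of Slc7a11, Nfe2l2, Txnrd1 and Gsr in 4 myeloid classes on a log scale, in UMIs per 10000 UMIs of the class, 1 point per library with its exact Poisson 95% interval; squares are control, red AKI, blue CKD, circles library 1 and triangles library 2. The control has no point in monocyte-like and neutrophil-like cells, where it held fewer than 20 cells, and its Slc7a11 points of 0.0331 and 0.00712 lie below all others.

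Txnrd1 (chromosome 10, 82833951 to 82897724), cytosolic thioredoxin reductase, was called in DCT-like and DC-like cells. In DCT-like cells the level was 0.617 in the control, 1.46 and 1.58 in AKI and 0.811 and 1.11 in CKD (log2 fold change 1.21 ± 0.252, adjusted p = 0.00166, edgeR). In DC-like cells the level was 0.378 in the control, 1.02 and 0.937 in AKI and 1.24 and 1.00 in CKD (1.55 ± 0.223, adjusted p = 0.0121). The control was the lowest library in both classes. In the DCT-like cluster led by Slc12a3 and Pvalb Txnrd1 was 0.581 in the control and 1.44 and 1.83 in AKI, over 40 and 36 AKI cells. In that led by Slc12a3 and Abca13 it was 0.728 against 1.53 and 1.01, with CKD 2 below the control at 0.661. The counting intervals of the control and AKI 2 overlapped in this cluster. With at most 15% mitochondrial UMIs the DCT-like difference was 0.87 with an adjusted p of 0.0863. In macrophage-like cells the control was again the lowest, 0.250 against 0.786 to 0.943, with a log2 fold change of 1.92 ± 0.293 and an adjusted p of 0.106. In PT-like cells it was 0.610 in the control, 0.999 and 1.00 in AKI and 1.07 and 1.11 in CKD (adjusted p = 0.0746).

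Srxn1 (chromosome 2, 152105524 to 152111376), sulfiredoxin, repairs over-oxidised peroxiredoxins. No difference of Srxn1 passed. In PT-like cells it was 0.325 in the control, 0.577 and 0.538 in AKI and 0.539 and 0.538 in CKD, so the control stood below 4 close values (log2 fold change 0.70 ± 0.200, adjusted p = 0.0569, edgeR). In DC-like cells it was 0.0285 in the control, 0.105 and 0.144 in AKI and 0.0905 and 0.0647 in CKD (adjusted p = 0.0518). Both misses were narrow, and neither shows that the level was the same. CD-IC-like cells had the highest median, 0.716, and T lymphocyte-like cells the lowest, 0.0380.

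Gpx4 (chromosome 10, 80047166 to 80056439), the selenoprotein that reduces lipid peroxides in membranes, passed in no class. In PT-like cells it was 11.9 in the control, 13.4 in AKI 2, 14.6 in CKD 1 and 12.3 in CKD 2, with AKI 1 between the control and AKI 2 (log2 fold change 0.08 ± 0.255, adjusted p = 0.880, edgeR). PT-like cells held more than every other class, and all 5 of their libraries lay above all 5 of thin limb-like cells (9.62 to 11.6). Within the class the 3 clusters were unlike. Gpx4 was 17.0 in the control against 15.3 and 15.6 in AKI in the Miox-led cluster, but 11.2 against 13.9 and 14.0 in the Spink1-led cluster and 2.91 against 3.23 and 3.86 in the Gm26917-led cluster. The class value mixes these orders over clusters whose shares differ between the groups. In TAL-like cells Gpx4 was 4.69 in the control, 9.22 and 7.96 in AKI and 7.77 and 7.48 in CKD. The control was the lowest library there, with an adjusted p of 0.118.

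Acsl4 (chromosome X, 142317993 to 142390802), the acyl-CoA synthetase that puts polyunsaturated fatty acids into phospholipids, also passed in no class. In PT-like cells the level was low, 0.196 in the control, 0.250 and 0.285 in AKI and 0.220 and 0.191 in CKD (adjusted p = 0.350, edgeR), and the groups did not separate across all libraries. The distal classes had the highest medians, 1.20 in CD-IC-like, 1.16 in TAL-like and 0.883 in DCT-like cells, with overlapping ranges, and DCT-like cells (0.833 to 1.72) lay above every library of CNT-like cells (0.514 to 0.760). In DCT-like cells Acsl4 was 0.833 in the control, 1.72 and 1.15 in AKI and 0.883 and 0.839 in CKD, with an adjusted p of 0.0622 for AKI against control and 0.166 for CKD against AKI.

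**Figure D5:**
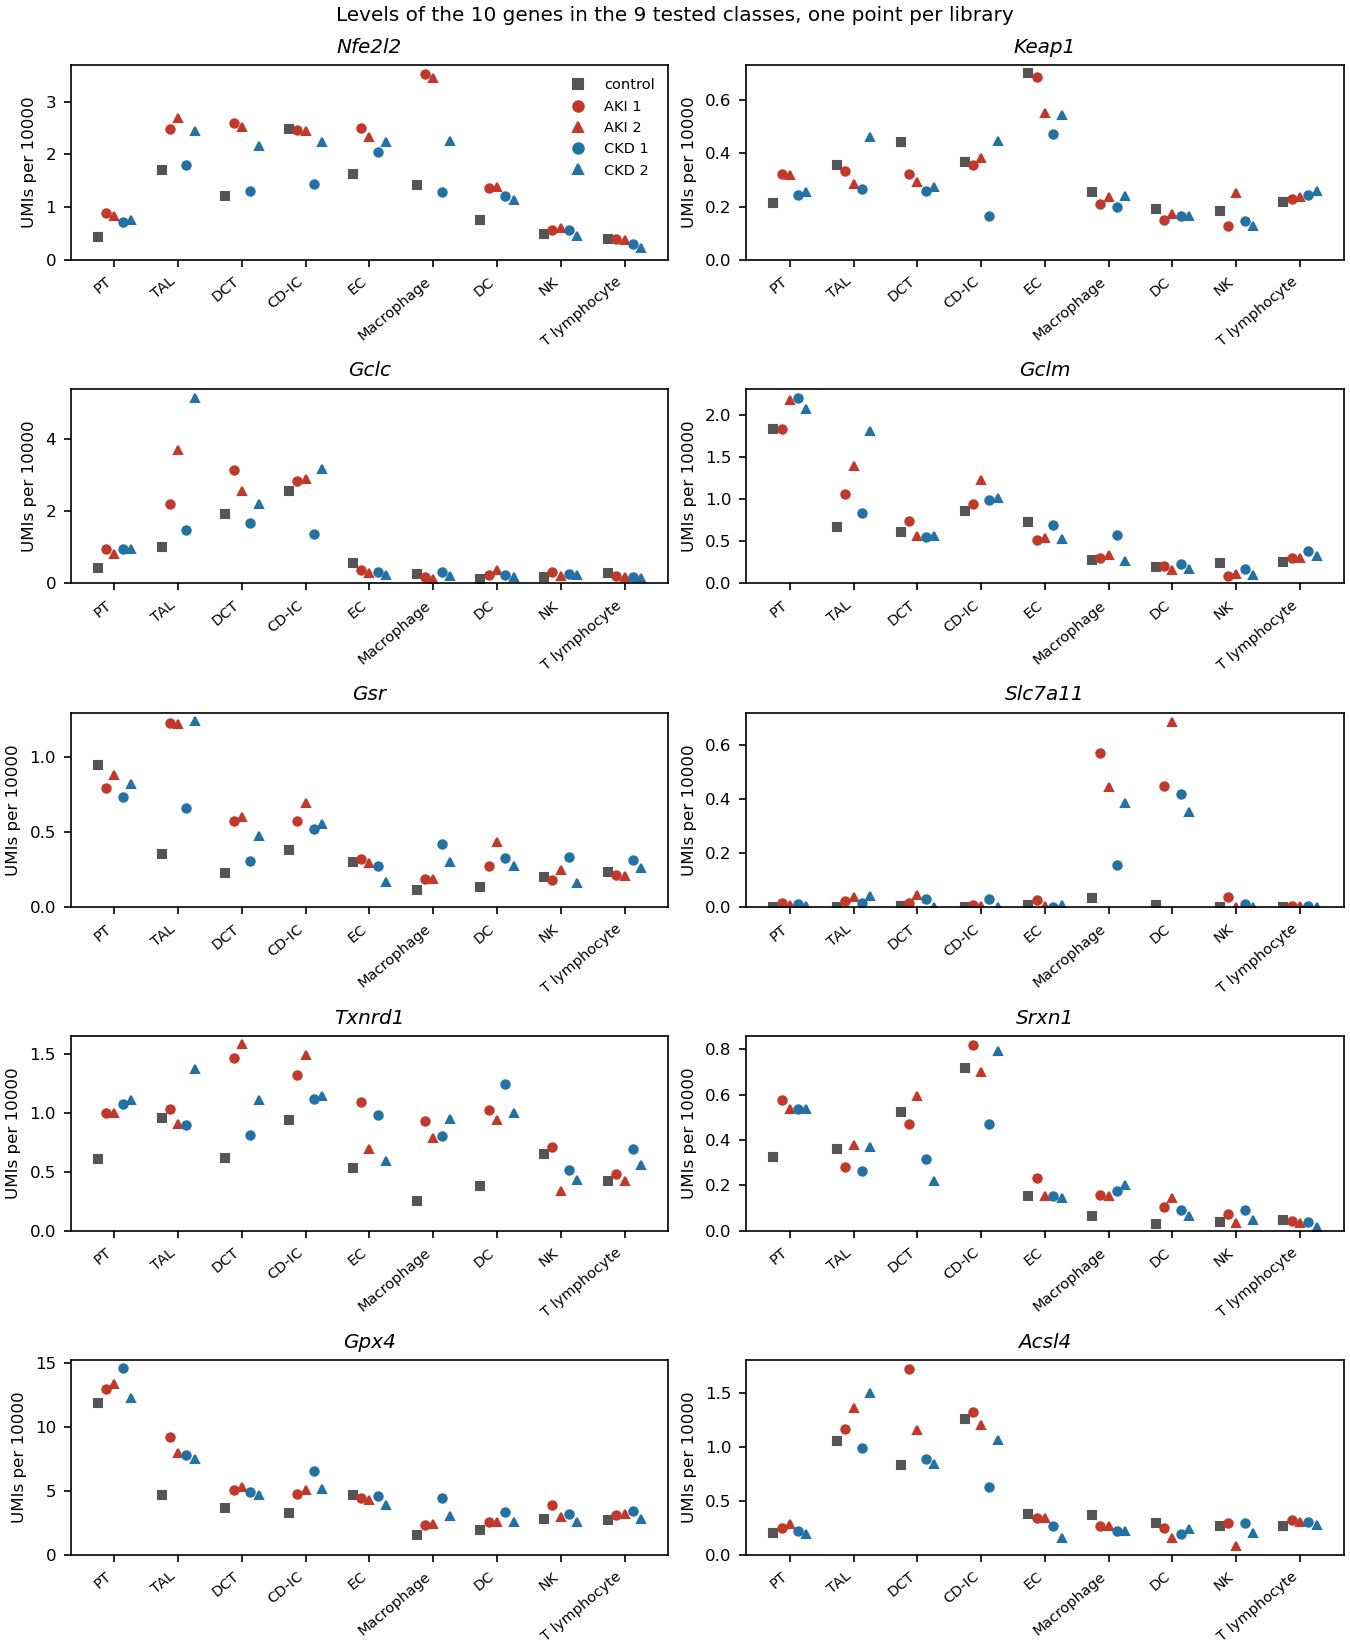
Levels of the 10 genes in the 9 tested classes, in UMIs per 10000 UMIs of the class, 1 point per library on an axis of its own for each gene; squares are control, red AKI, blue CKD, circles library 1 and triangles library 2. Gpx4 is highest in PT-like cells (11.9 to 14.6), Acsl4 and Gclc in distal tubule classes, and Slc7a11 in macrophage-like and DC-like cells of the AAI libraries.

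Other genes of these pathways were counted from lists chosen with earlier results of these data known. Among 20 other NRF2 targets, 19 were tested in PT-like cells and 4 were higher in AKI, with 0 lower (median log2 fold change 0.23 against 0.00 over all genes). Of all genes tested in PT-like cells 12.0% were called. Ephx1, microsomal epoxide hydrolase, was 0.0444 in the control, 0.649 and 0.697 in AKI and 0.985 and 1.17 in CKD (3.84 ± 0.284, adjusted p = 7.0e-04, edgeR). Nqo1, the quinone reductase often read as an NRF2 target, was 0.0906 in the control, 0.222 and 0.190 in AKI and 0.211 and 0.316 in CKD (1.10 ± 0.302, adjusted p = 0.0486). Pgd, an NADPH-making enzyme of the pentose phosphate pathway, and Osgin1, a stress-induced growth inhibitor, rose with log2 fold changes of 1.07 and 1.02. In each of these genes all 4 AAI libraries were above the control. For the AKI libraries this was fixed in advance, since genes were named only where the compared groups did not overlap.

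In the distal classes and EC-like cells Hmox1, the haem-degrading enzyme, was higher in AKI, with levels of 0.0651 in the control against 0.573 and 0.481 in DCT-like cells (adjusted p = 7.2e-05, edgeR), and 0.135 against 0.595 and 0.515 in EC-like cells. Of the 12 regulators and partners of NRF2, the small MAF gene Maff rose in PT-like cells from 0.0551 to 0.792 and 0.429 (adjusted p = 0.00341), in TAL-like from 0.0821 to 0.666 and 0.571, in DCT-like from 0.0686 to 0.625 and 0.918, in EC-like from 0.256 to 1.40 and 0.963 and in DC-like cells from 0.199 to 0.497 and 0.474. Mafk, its relative, passed in PT-like, TAL-like, DCT-like and EC-like cells. Sqstm1, which encodes a receptor of autophagy that binds KEAP1, rose in DCT-like cells from 0.764 to 4.43 and 4.64 and stood at 1.60 and 2.06 in CKD, where it also passed for CKD against AKI (-1.25 ± 0.201, adjusted p = 0.00262). Of this list 2 genes were higher in PT-like, 3 in TAL-like, 4 in DCT-like, 4 in EC-like, 3 in DC-like and 2 in T lymphocyte-like cells, and 0 were lower in any of them. Beside these counts, the share of all genes called was 12.0% in PT-like, 8.53% in TAL-like and 17.2% in DCT-like cells. It was 8.36% in EC-like, 6.74% in DC-like and 6.42% in T lymphocyte-like cells.

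The 24 other glutathione genes split in direction. In PT-like cells 3 of 23 tested were higher and 4 lower in AKI (median -0.04), among them Mgst1, a membrane glutathione transferase, higher at 1.43 and 1.31 against 0.455, and Gstk1, a mitochondrial one, lower at 0.119 and 0.123 against 0.336. In DCT-like cells 3 were higher and 5 lower of 21. Of all genes tested 12.0% were called in PT-like and 17.2% in DCT-like cells. Slc3a2, the partner chain of the cystine importer, was higher there, with 2.11 and 1.99 against 0.775 (adjusted p = 0.00105, edgeR), and in EC-like cells, with 4.29 and 4.28 against 2.54. Among 14 other thioredoxin and peroxide genes 0 of 14 were higher and 2 lower in PT-like cells, namely Sod2 (6.41 in the control, 3.64 and 3.33 in AKI) and Prdx3 (1.22, then 0.745 and 0.753), both enzymes of mitochondria.

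Of 25 other ferroptosis genes 22 were tested in PT-like cells, where 5 were higher and 1 lower, beside 12.0% of all genes called there. Ftl1, the light chain of the iron store ferritin, was the lower one, 79.1 in the control against 36.7 and 36.4 in AKI and 44.9 and 37.6 in CKD (-1.19 ± 0.269, adjusted p = 0.0255, edgeR), whereas in DCT-like cells it was higher, 7.75 against 17.5 and 25.4 (1.38, adjusted p = 0.00189). In DC-like cells both ferritin chains were higher: Fth1 stood at 38.1 in the control and at 71.4 and 80.9 in AKI, and Ftl1 at 17.8 and at 32.5 and 37.6. Ferritin, Gstp1 and peroxiredoxin genes have near-identical copies in the genome, so their counts are less certain. Gch1, which makes the lipid-protecting cofactor tetrahydrobiopterin, rose in PT-like cells from 0.00711 to 0.0705 and 0.0645 (adjusted p = 0.0182).

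For CKD against AKI the lists passed mainly in T lymphocyte-like cells, the class with the most cells. All genes did so too, with 8.91% of those tested called there against at most 1.96% in any other class. Other NRF2 targets were higher for 4 and lower for 1 of 19 there, other thioredoxin and peroxide genes higher for 4 and lower for 2 of 14, and regulators and partners higher for 1 and lower for 4 of 12. Prdx1, a peroxiredoxin, stood at 2.05 and 2.02 in AKI and at 3.48 and 2.80 in CKD (adjusted p = 0.0319, edgeR). Slc3a2 was lower in CKD, with 7.21 and 7.33 in AKI and 5.09 and 5.13 in CKD (adjusted p = 0.0288). In this class the stress genes moved too, with 7 of 15 lower in CKD, and their part was not tested. In PT-like cells the one glutathione gene that passed was Gstp1, with 0.164 and 0.192 in AKI and 0.524 and 0.386 in CKD (1.43 ± 0.221, adjusted p = 0.0310, edgeR).

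Several other measures moved along with the AKI difference. Of 15 dissociation and stress genes, 12 were higher in AKI in PT-like, 13 in DCT-like, 14 in EC-like and 3 in TAL-like cells, with none lower, whereas 2 were lower in DC-like and 3 in T lymphocyte-like cells and none higher. Their summed level was 39.1 in control PT-like cells against 87.2 to 124 in AKI, and 83.1 against 237 and 243 in DCT-like cells, but 165 in control DC-like cells against 100.2 and 103. The summed injured tubule markers rose from 10.0 to 185 and 265 in PT-like cells and from 13.4 to 223 and 243 in DCT-like cells. The markers of the classes themselves moved as well. In DCT-like cells the summed DCT markers were 133 in the control, 36.6 and 32.2 in AKI and 38.3 and 28.5 in CKD, while the TAL markers stood at 71.9, then 62.2 and 37.7, and 103 and 62.0, above the DCT markers in all 4 AAI libraries. In TAL-like cells the TAL markers were 259 in the control and 178 and 124 in AKI, and Egf, a growth factor of the distal tubule, was 131 in the control and 2.69 and 2.28 in AKI. These 2 classes hold 4 of the 9 calls. The mitochondrial share of UMIs was 21.7% in control DCT-like cells and 12.0% and 12.1% in AKI. It was 22.8% against 11.3% and 10.9% in TAL-like cells, and 5.76% against 2.48% and 2.80% in DC-like cells. In PT-like cells the control lay between the AKI libraries at 13.4% and 16.1%. Their part in the differences of the 10 genes was not tested. Since CKD was not tested against the control, its levels are given as values only.

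Averages over all kept cells went another way for some genes. Gclc over all cells was 1.26 in the control, 0.802 in AKI 1, 0.464 in CKD 1 and 0.441 in CKD 2, with AKI 2 between AKI 1 and CKD 1, and Acsl4 was 0.629, then 0.452 and 0.385, and 0.312 and 0.292. T lymphocyte-like cells, which were low in Gclc, numbered 1239 of 8496 in the control and 5463 of 8783 in CKD 2. Slc7a11 over all cells was 0.0230 in the control, 0.144 and 0.188 in AKI and 0.0949 and 0.0845 in CKD. For Gclc the direction over all cells was opposite to that in PT-like cells.

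Patterns over cell classes were compared by Pearson's correlation of log2(UMIs per 1000000 + 1) over 83 sums of a class in a library, as a description, since sums of 1 library share its depth. Among 7371 genes tested in at least 8 classes, Gclc was most like S100a1 (r = 0.878), Nedd4l (0.872) and Ldhb (0.856). Gpx4 was most like Gss, glutathione synthetase (0.844), and Gclm (0.841), both glutathione genes, and then Esd (0.825). Gclm itself was nearest to Mrpl53 (0.856), Hint2 and Ech1 (both 0.845). Gsr followed Msrb1, a methionine sulfoxide reductase (0.821), Taldo1 (0.805) and Tmem189 (0.801), and Slc7a11 followed Fem1c (0.830), Card19 (0.825) and Tiparp (0.816). The nearest genes were Rab20 (0.791), Trib1 (0.787) and Ppard (0.780) for Nfe2l2, Eif2ak2 (0.804), Thap11 (0.795) and Strn (0.793) for Keap1, and Sra1 (0.810), Pxn (0.783) and Furin (0.780) for Txnrd1. For Srxn1 they were Gng12 (0.862), Cers2 and Gde1 (both 0.848). Between members the highest was Gclm with Gpx4, followed by Gsr with Txnrd1 (0.745).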

How the data were processed

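The authors deposited raw UMI counts per gene and barcode from Cell Ranger for each library, 1 control, 2 AKI and 2 CKD; the submitters' notes name version 7.2.0 and GRCm39, while file headers name others and the control list mm10, so genes were joined by identifier. The study's methods name CellBender and scDblFinder, but the deposited counts are raw, and free RNA was not removed here. Barcodes with at least 200 genes and at most 30% mitochondrial UMIs were kept (60043 of 72896), and 6325 scored as doublets were removed at 0.8% per 1000 barcodes. Between 53891382 and 79451723 UMIs per library remained in cells. From 3000 variable genes without the members, 40 components were adjusted for library by the Harmony algorithm, coded anew, and 15 neighbours were clustered by Leiden at resolution 1.5. Clusters were named from markers, at least 3 detected; the scoring rule and the rule leaving clusters with over 90% of cells from 1 library unnamed were settled after seeing the clusters. The members, lists and tests were chosen with earlier results of these data known. Named genes are the members and, per list, class and comparison, at most 5 with the largest change among those called whose groups do not overlap, of which the text gives a part, plus 3 genes per member by correlation; those for Acsl4 are not reported here.

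Sums were tested with edgeR 4.0.16 (quasi-likelihood, TMM, filterByExpr) in R 4.3.3, with DESeq2 1.42.0 as an alternative; both fits, and the test between classes, which was added after seeing the data, were tested on simulated data. No pairing of libraries is stated in the labels. Python 3.11.15 with numpy 2.4.6, scanpy 1.11.5 and leidenalg 0.10.2 was used.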

Additional observations from a re-analysis of the deposited data

Results flagged for a closer look

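In 3 pairs of classes a gene's AKI minus control difference was unlike that in PT-like cells, by a test of the difference itself. Gclc differed between PT-like and EC-like cells by a log2 difference of 1.74 (1.02 in PT-like and -0.72 in EC-like cells, higher in 2 of 2 AKI libraries in the former and lower in 2 of 2 in the latter). Gsr in PT-like against TAL-like cells differed by -1.92 and in PT-like against DCT-like cells by -1.47, being higher in both AKI libraries in TAL-like and DCT-like cells and lower in both in PT-like cells as a class. Within the PT-like clusters Gsr was lower in both AKI libraries in the Miox-led cluster alone, which held 37.6% of the class's UMIs in the control and 7.79% and 6.87% in AKI; the part of these shares was not tested. The groups held 1 or 2 libraries, too few for a check of single libraries that stand apart.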

How the results depend on the processing

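For CKD against AKI, where 0 pairs passed, 4 passed with DESeq2, 6 with no low-count filter, 4 with doublets kept, 3 with no correction by library and 2 with the replicate block; leaving out each library in turn gave 0 to 20, the highest without CKD 2 and 8 without CKD 1. For AKI against control, where 9 passed, 21 did with no low-count filter, 16 with doublets kept and 14 with no correction by library; leaving out a library gave 1 (without AKI 1) to 38 (without CKD 1). Counts stayed within 1.5 times under the other settings, with DESeq2 at 10 and no TMM at 12. A mitochondrial limit of 15% left TAL-like cells untested, and moved 24 of the 50 levels in PT-like cells outside their counting intervals, against 5 of 50 with doublets kept. Over all these settings none of the 9 called pairs changed sign. DESeq2 called 7 of the 9, the 15% limit 6 of 8 and no correction 8 of 9, while every one of the 9 remained under no TMM, no filter, doublets kept, without the shared barcodes of the control and without either CKD library. Without AKI 1 only Slc7a11 in DC-like cells stayed called. The setting that adds clusters of 1 library was chosen after seeing the data, and left the counts at 0 and 9. The correlation of library deviations between equal sample numbers was -9.1e-04 to 0.260 over the classes, with no pairing in the labels. Fits with 1 library left in a group assume that it varies like the others. The cause of these moves was not tested.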

Other observations

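A cluster of 1438 cells led by Ctsk, Mmp9 and Acp5, with all 8 macrophage markers detected, was left unnamed because its leading genes hold a neutrophil marker, Mmp9, and no macrophage marker; it entered no test. In it Nfe2l2 stood at 0.710 in the control, 3.86 and 3.53 in AKI and 0.496 and 0.665 in CKD, and Slc7a11 at 0.118, then 1.06 and 0.799, and 0.0234 and 0.0409. Gsr was highest in CKD, with 0.237 in the control, 0.372 and 0.339 in AKI and 1.14 and 1.41 in CKD. The CKD 1 library gave 965 of these cells and AKI 1 only 39. The control values rest on 53 cells and very few UMIs. These were 6 of Nfe2l2 (counting interval 0.261 to 1.55), 1 of Slc7a11 (0.00300 to 0.659) and 2 of Gsr (0.0287 to 0.855). Among DC-like cells, those led by Fscn1 and Ccl22, genes of mature dendritic cells, held more Gclc than those led by Ccl17 and Cd209a, with 1.59 and 2.38 against 0.106 and 0.114 in AKI. In CKD the former held 0.679 and 0.795. These are values with no test.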
